A study of Mus musculus with 10 samples.

Results

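The secreted Wnt ligands, the Frizzled and LRP receptors that bind them, the secreted proteins that block them, and 2 transcripts used as readouts of the pathway were followed through mouse neuroblastomas. The members were taken by gene name from the array: every Wnt, Frizzled (Fzd), Sfrp and Dkk gene, with Lrp5, Lrp6, Axin2, Lef1 and Wif1. The members were chosen with earlier results of these data known, but the rule itself used no measured difference. Measured signal served only to take, for each gene, the probe of highest mean intensity. This gave 42 genes with 51 probes, of 36161 named genes on the array: 19 ligands, 12 receptors, 9 secreted antagonists and 2 intracellular or nuclear components.

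Tumour RNA of 10 transgenic mice was measured, 1 tumour per mouse and array. The 5 ALK/MYCN tumours came from mice that carry 1 copy each of a MYCN transgene and of ALK with the F1174L mutation, an activating change in a receptor tyrosine kinase, on a C57BL/6 x 129X1/SvJ background. The 5 MYCN tumours came from mice that carry the MYCN transgene alone, on 129X1/SvJ. All tumours were untreated, both groups carry MYCN, and the promoters that drive the transgenes are not given in the sources used here. Genotype and mouse background therefore changed together, and no difference below can be assigned to one of them, since they cannot be told apart. Cy3 marked the tumour RNA, and a common pool of RNA from 11 mouse cell lines, called the reference here, carried Cy5 on every array. A value is therefore a log2 ratio of tumour over reference, and a difference is the mean of ALK/MYCN minus the mean of MYCN on that scale.

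Wnt proteins are lipid-modified growth factors that bind a Frizzled receptor. With the co-receptors Lrp5 or Lrp6 they stabilise beta-catenin, which joins TCF/LEF factors in the nucleus and raises targets such as Axin2. Other Wnt and Frizzled pairs act without beta-catenin on cell shape and movement. Sfrp and Wif1 proteins bind the ligands outside the cell, and Dkk1, Dkk2 and Dkk4 bind the co-receptors. The sympathetic nervous system, from which neuroblastoma arises, develops from the neural crest, whose induction needs Wnt signals.

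Promoter windows from RefSeq (assembly GRCm38.p6, from 250 bases before to 50 after the annotated start) were matched by symbol for 28 of the 42 members, which gave 34 windows. Of the 5 members that differed between the groups, Sfrp4 was not matched. The windows of Fzd5, the member with the largest higher value in ALK/MYCN among those that passed the test, and Wnt3, the one with the largest lower value, are printed together with the Wnt5b window that holds a TCF/LEF core. They are shown so that the letters behind the motif counts can be read. Capitals mark the core motif ATCAAAG, searched on both strands (CTTTGAT on the printed strand).
Fzd5, chr1:64737701-64738000, minus strand: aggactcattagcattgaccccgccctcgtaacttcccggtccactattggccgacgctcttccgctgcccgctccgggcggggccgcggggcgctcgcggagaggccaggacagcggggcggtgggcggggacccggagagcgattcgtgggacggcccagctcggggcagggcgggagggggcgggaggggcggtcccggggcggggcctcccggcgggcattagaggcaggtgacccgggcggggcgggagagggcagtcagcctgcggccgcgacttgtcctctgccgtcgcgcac
Wnt3, chr11:103773925-103774224, plus strand: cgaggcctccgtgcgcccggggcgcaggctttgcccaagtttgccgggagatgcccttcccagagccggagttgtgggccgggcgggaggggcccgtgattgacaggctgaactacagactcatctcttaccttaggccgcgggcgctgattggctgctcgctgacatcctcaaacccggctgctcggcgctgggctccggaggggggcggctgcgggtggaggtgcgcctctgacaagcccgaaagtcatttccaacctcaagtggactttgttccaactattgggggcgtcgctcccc
Wnt5b, chr6:119449337-119449636, minus strand: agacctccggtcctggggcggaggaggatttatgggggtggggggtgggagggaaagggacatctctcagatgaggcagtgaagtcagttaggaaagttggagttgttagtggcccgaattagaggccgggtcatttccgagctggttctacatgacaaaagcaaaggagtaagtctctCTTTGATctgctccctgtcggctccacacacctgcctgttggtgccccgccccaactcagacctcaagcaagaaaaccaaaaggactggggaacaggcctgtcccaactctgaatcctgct
The core occurred in 2 of the 34 member windows (5.88%, Wnt5b and Wnt11), against 3.73% of all 32851 windows. In Wnt5b it begins at position -71 relative to this start, 1 of 3 annotated for the gene, and in Wnt11 at position -51. The E-box CACGTG, the core bound by MYC family proteins and its own reverse complement, occurred in 4 member windows (11.8%, those of Fzd9, Lef1, Wif1 and Wnt9a), against 7.15% of all windows. These matches describe letters in the windows and nothing about binding.

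The design sets tumours with mutant ALK and MYCN against tumours with MYCN alone. In the marker lists 4 tumours stood apart by markers of other tissues: ALK/MYCN 3 for adrenal cortex, MYCN 2 for skeletal muscle, MYCN 4 for fat and MYCN 5 for kidney epithelium. Of the 42 members, 21 were well above background in Cy3, the tumour channel, on all 10 arrays and 8 on none. The receptors were the most widely detected, with 9 of 12 above background on all 10 arrays and none absent throughout. Of the 19 ligands, 6 were above background on all 10 arrays, and 7 (Wnt2, Wnt3a, Wnt7a, Wnt8a, Wnt8b, Wnt9b and Wnt10b) on none. Among the antagonists only Dkk4 was above background on no array.

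**Figure D1:**
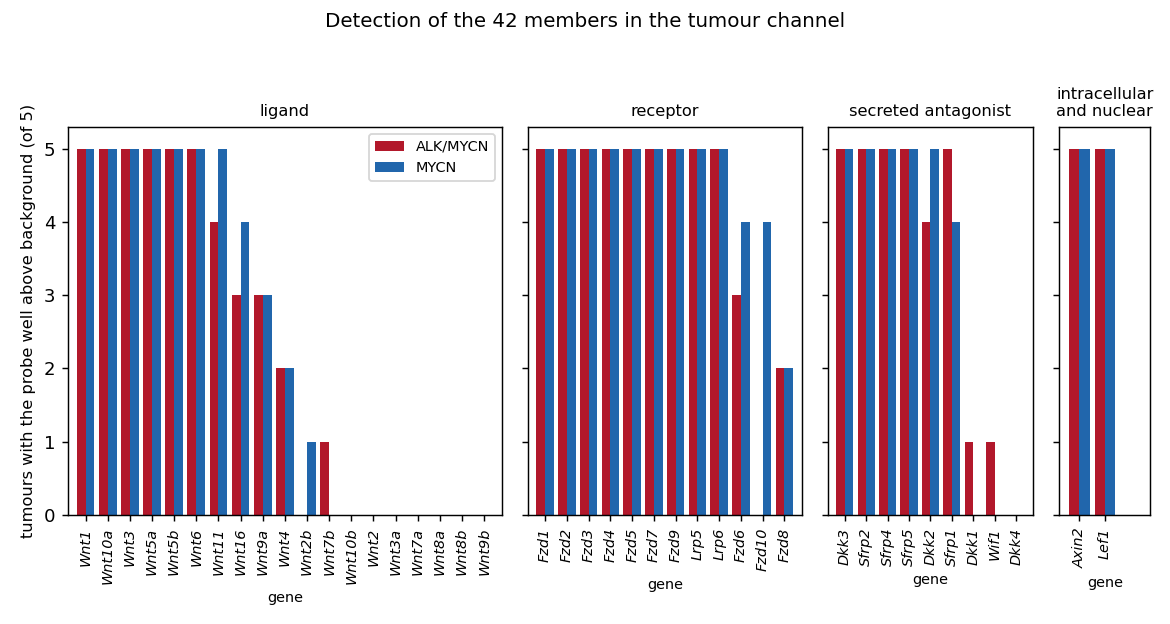
Number of tumours per group (vertical axis, of 5) in which the probe of each of the 42 members was well above background in the tumour channel, with ALK/MYCN bars left of MYCN bars. Most receptors reach 5 in both groups, 7 ligands and Dkk4 have no bar, and Fzd10 has 0 ALK/MYCN and 4 MYCN tumours.

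A member was tested when its probe was well above background in the tumour channel on at least 5 of the 10 arrays, which 27 members met. Members above background in 1 group alone could enter through that group. At an adjusted p of 0.05 (limma, Benjamini-Hochberg over all 22263 genes tested), 5 of the 27 passed, or 18.5%, against 26.5% of all genes tested. Fzd5 and Wnt6 were higher in ALK/MYCN tumours (14.2% of all genes were called higher) and Wnt3, Sfrp4 and Wnt5b were lower (12.2% of all genes were called lower). Of these 5, Wnt3 alone passed in a fit with slides as blocks. The groups did not overlap for 3 members (Wnt3, Wnt6 and Fzd5), against 19.9% of all genes. Differences of the 27 ranged from -1.37 to 1.28 with a median of -0.22, and 7 were above 0 and 20 below, while the median over all genes was -0.0036. That split depends on scaling: with arrays centred on the spike-in controls, which moved the median of all genes to 0.25, 15 members were above 0 and 12 below and their median was 0.03.

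**Figure D2:**
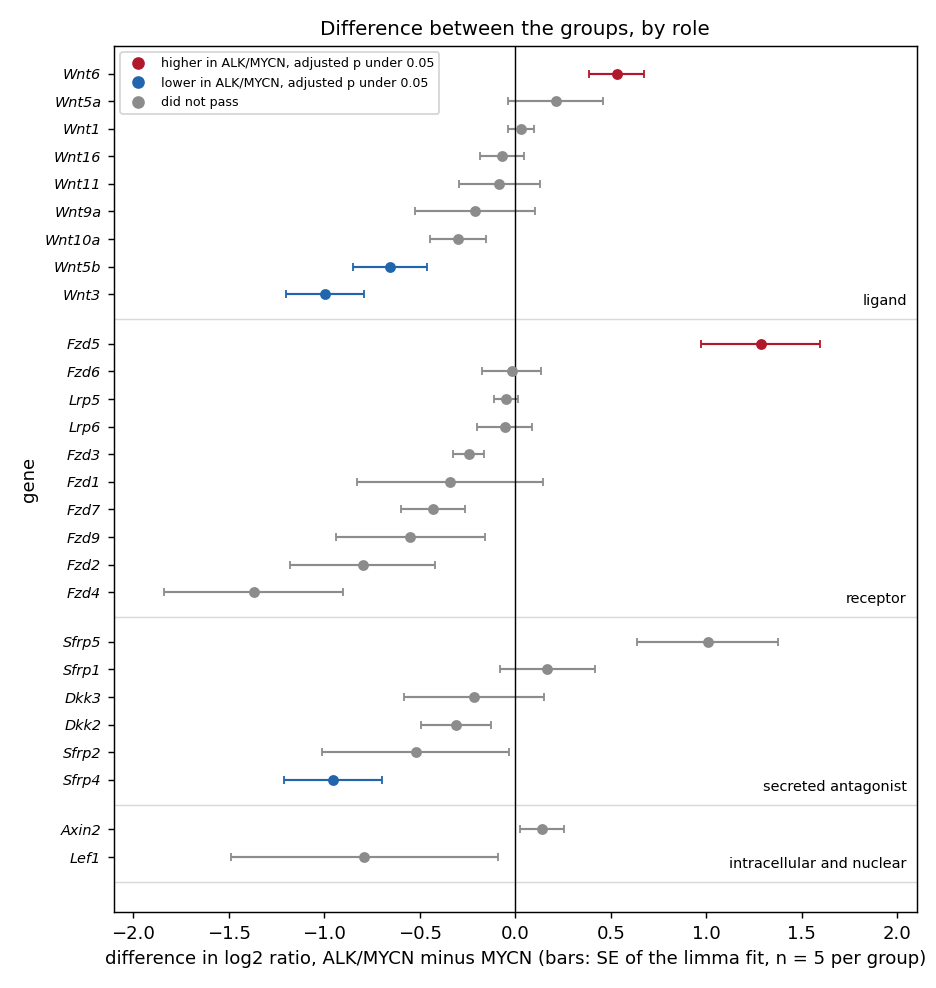
Difference in log2 ratio, ALK/MYCN minus MYCN, for the 27 tested members by role, with the SE of the fit as bars. Fzd5 and Wnt6 lie right of 0 and Wnt3, Wnt5b and Sfrp4 left of 0 among those that passed, while Fzd4, Sfrp5 and Lef1 have wide bars.

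**Figure D3:**
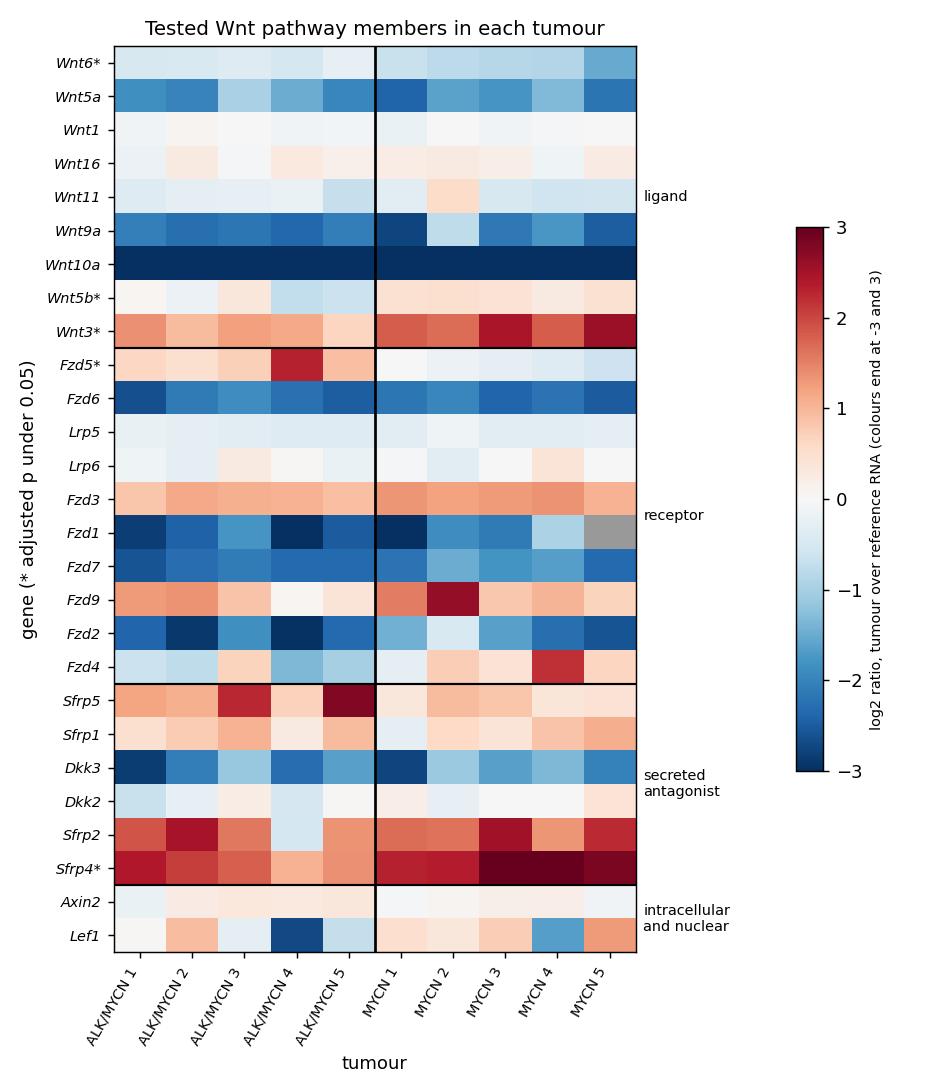
Log2 ratio of tumour over reference for the 27 tested members (rows, by role) in each tumour (columns, ALK/MYCN left of MYCN), with a grey cell for a missing value. Rows are read within themselves, since levels of different probes cannot be compared. The Wnt3 row is darker red in all 5 MYCN tumours and the Lef1 row is blue in ALK/MYCN 4 and MYCN 4.

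Among the ligands, Wnt3 was lower in all ALK/MYCN tumours. Wnt3 is a ligand of the beta-catenin branch needed for axis formation in the mouse embryo. The log2 ratio of this gene was 1.38, 0.95, 1.22, 1.15 and 0.65 in ALK/MYCN tumours 1 to 5, against 1.82, 1.67, 2.45, 1.81 and 2.58 in MYCN tumours 1 to 5. Every ALK/MYCN tumour lay below every MYCN tumour, and MYCN 3 and 5 were highest. The difference was -0.99 ± 0.20 (SE, n = 5 each, adjusted p = 0.00709). Within slides 1, 2 and 3 it was -0.87, -0.56 and -1.58, and a fit with slides as blocks gave -1.02 (adjusted p = 0.0249). The probe, at chr11:103679038-103679097 (mm9), was well above background in the reference RNA on 1 of 10 arrays, so the ratio is taken against a reference near background. On the tumour signal alone the difference was -1.08 (adjusted p = 0.0140).

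Wnt5b, a ligand known mainly for signalling without beta-catenin, was also lower in ALK/MYCN tumours. In log2 ratio it measured 0.05, -0.18, 0.35, -0.74 and -0.65 in ALK/MYCN tumours 1 to 5, against 0.47, 0.49, 0.44, 0.27 and 0.45 in MYCN tumours 1 to 5. The ALK/MYCN values were spread (-0.23 ± 0.46, mean ± SD) and the MYCN values lay close together (0.42 ± 0.09). The groups overlapped through ALK/MYCN 3, which lay above MYCN 4. The difference was -0.66 ± 0.19 (adjusted p = 0.0312). It was -0.65, -0.38 and -1.11 within slides 1, 2 and 3, and a fit with slides as blocks gave -0.72, which did not pass (adjusted p = 0.0645). Of 25 alternative settings, 12 ended this call and none turned its direction, though some settings leave the difference itself unchanged.

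Wnt6, a ligand of the beta-catenin branch that is expressed in epithelia and helps induce the neural crest in chick embryos, was higher in ALK/MYCN tumours. Its log2 ratio was -0.47, -0.45, -0.38, -0.53 and -0.24 in ALK/MYCN tumours 1 to 5, against -0.68, -0.79, -0.87, -0.88 and -1.51 in MYCN tumours 1 to 5. The groups did not overlap in this ratio, and MYCN 5 was lowest. The difference was 0.53 ± 0.14 (adjusted p = 0.0236), and without MYCN 5 it was 0.39 (adjusted p = 0.00992). Within slides 1, 2 and 3 it was 0.23, 0.42 and 0.82, and a fit with slides as blocks gave 0.52 (adjusted p = 0.0714). On the tumour signal alone the difference was 0.62 and did not pass (adjusted p = 0.0890). In that signal the groups overlapped, with MYCN 1 above ALK/MYCN tumours 1 to 4.

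Wnt6 has a neighbour among the members: the probe of Wnt10a lies 19.1 kb away on chromosome 1 (mm9). Wnt10a, a ligand of skin and tooth development, did not pass. Its log2 ratio lay between -4.29 and -3.60 in ALK/MYCN tumours and between -3.96 and -3.38 in MYCN tumours, with a difference of -0.30 ± 0.15 (adjusted p = 0.159). Whether the Wnt6 and Wnt10a differences differ was not tested. The probe of Wnt9b lies 90.1 kb from that of Wnt3 on chromosome 11 and was above background on no array.

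The 6 tested ligands that did not pass had differences from -0.30 (Wnt10a) to 0.21 (Wnt5a, a ligand that acts mainly without beta-catenin). Wnt1, the founding member of the family, had ratios between -0.11 and 0.08 in ALK/MYCN tumours and between -0.20 and 0.01 in MYCN tumours, a difference of 0.03 ± 0.07. A second Wnt1 probe was above background on no array in either dye, so these values rest on the brighter probe. Wnt11, which acts on cell movement, had -0.70 to -0.21 in ALK/MYCN tumours. It had -0.60 to -0.32 in 4 MYCN tumours and 0.56 in MYCN 2, the tumour with the highest summed signal of 10 skeletal muscle markers (1238 times the array's 75th percentile, against 0.72 to 1.21 in ALK/MYCN and 1.58 to 49.1 in the other MYCN tumours). Wnt9a was likewise highest in MYCN 2 at -0.77, against -2.36 to -2.05 in ALK/MYCN tumours and -2.74 to -1.75 in the other MYCN tumours. The part of muscle in either value was not tested. Wnt16 had a difference of -0.07 ± 0.12 (adjusted p = 0.685). Its probe was above background in the reference on 1 of 10 arrays, and on the tumour signal alone the difference was -0.87.

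Ligands below the detection rule have no test. Wnt4, a ligand needed for kidney and adrenal development, was above background in 2 tumours of each group. Its ratio was -0.82 in ALK/MYCN 3 and -2.40 to -2.02 in the other ALK/MYCN tumours, against -1.44 in MYCN 2 and -2.32 to -2.07 in the other MYCN tumours. ALK/MYCN 3 alone carried a high summed signal of 8 adrenal cortex markers (765.9 times the array's 75th percentile, against 0.58 to 0.76 in the other ALK/MYCN and 0.50 to 1.15 in the MYCN tumours), and all 8 markers were above background there. The part of adrenal tissue in the Wnt4 value was not tested. Wnt2b was above background in no ALK/MYCN and 1 MYCN tumour, and its ratio in that tumour, MYCN 5, was 0.02, within the ALK/MYCN range of -0.32 to 0.13. Wnt7b was above background in ALK/MYCN 4 alone, where its spot was marked as an outlier and its ratio left out.

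Among the receptors, Fzd5 was higher in all ALK/MYCN tumours on the probe that stood for it. Fzd5 is a Frizzled receptor that binds ligands of both branches and is needed for eye and placental development in the mouse. The log2 ratio of this gene was 0.62, 0.47, 0.71, 2.30 and 0.91 in ALK/MYCN tumours 1 to 5, against 0.02, -0.19, -0.26, -0.38 and -0.61 in MYCN tumours 1 to 5. Every ALK/MYCN tumour lay above every MYCN tumour, and ALK/MYCN 4 was far above the other 4. The difference was 1.28 ± 0.31 (adjusted p = 0.0146), and without ALK/MYCN 4 it was 0.96 (adjusted p = 0.00234). Within slides 1, 2 and 3 it was 0.45, 1.58 and 1.26, and a fit with slides as blocks gave 1.18 (adjusted p = 0.0629).

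A second Fzd5 probe gave a smaller difference. The main probe lies at chr1:64779479-64779538 and the other at chr1:64781972-64782030 (mm9, minus strand), so the main probe is nearer the 3′ side. On the second probe the ratio was -0.17, -0.13, -0.02, 0.64 and -0.09 in ALK/MYCN tumours 1 to 5, against -0.14, -0.03, -0.08, -0.24 and -0.10 in MYCN tumours 1 to 5. Only ALK/MYCN 4 stood apart, and the difference was 0.16 ± 0.14 (adjusted p = 0.440 over all probes kept). Both probes were well above background on all 10 arrays. The mean over both probes gave 0.72 (adjusted p = 0.0390). The size of the Fzd5 difference, and whether it passed, thus depend on the probe.

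Fzd4, the receptor of Norrin (Ndp) in retinal vessels, had the largest difference in size of the 27 tested members and did not pass. In log2 ratio it measured -0.64, -0.75, 0.66, -1.35 and -0.99 in ALK/MYCN tumours 1 to 5, against -0.26, 0.73, 0.44, 2.20 and 0.65 in MYCN tumours 1 to 5. ALK/MYCN 3 lay among the MYCN tumours, and the other 4 ALK/MYCN tumours lay below all 5 MYCN tumours. The difference was -1.37 ± 0.47 (adjusted p = 0.0550). It was -0.49, -2.65 and -1.60 within slides 1, 2 and 3, and a fit with slides as blocks gave -1.71 (adjusted p = 0.0381).

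Markers of the vessels, where Fzd4 is known to act, are given beside it. Of 10 endothelial markers 7 passed lower in ALK/MYCN tumours and none higher (12.2% and 14.2% of all genes). All 10 were above background in at least 2 ALK/MYCN and in 5 MYCN tumours. Their summed signal was 13.9 to 20.7 times the array's 75th percentile in ALK/MYCN tumours, against 21.2 to 50.6 in MYCN tumours, and it was highest in MYCN 4, as was Fzd4. In ALK/MYCN 3, whose Fzd4 lay among the MYCN tumours, the endothelial sum (20.7) was the highest of the ALK/MYCN tumours and below every MYCN tumour. The sum of 8 adipocyte markers was 141.7 in ALK/MYCN 3 and 0.35 to 2.66 in the other ALK/MYCN tumours. It was 1282 in MYCN 4 and 13.5 to 58.2 in the other MYCN tumours. In bulk tumours fewer cells of a type and less RNA per cell cannot be told apart. The part of endothelium or fat in the Fzd4 value was not tested.

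The remaining tested receptors did not pass. Fzd3, needed for axon guidance in the mouse, had small spread, with ratios of 0.82 to 1.13 in ALK/MYCN tumours, against 1.05 to 1.34 in MYCN tumours, and a difference of -0.24 ± 0.08 (adjusted p = 0.0532). Fzd7, a receptor of stem and progenitor cells, had -2.58 to -2.11 in ALK/MYCN, against -2.34 to -1.49 in MYCN (difference -0.43 ± 0.17, adjusted p = 0.0841). Fzd2 had -2.37, -2.89, -1.83, -2.97 and -2.33 in ALK/MYCN tumours 1 to 5, against -1.44, -0.47, -1.64, -2.26 and -2.60 in MYCN tumours 1 to 5. The highest was MYCN 2, the muscle-marker tumour, and the groups overlapped (difference -0.80 ± 0.38, adjusted p = 0.147). Fzd9, a receptor of the hippocampus and of bone, had 1.29, 1.36, 0.85, 0.05 and 0.39 in ALK/MYCN tumours 1 to 5, against 1.54, 2.64, 0.80, 1.03 and 0.67 in MYCN tumours 1 to 5 (difference -0.55 ± 0.39, adjusted p = 0.332). MYCN 2 was again highest and the other values were mixed. Leaving out MYCN 2 gave differences of -0.50 for Fzd2 and -0.22 for Fzd9, and the part of muscle in the Fzd2 and Fzd9 values was not tested. Fzd1, whose value in MYCN 5 was left out because its spot was marked as an outlier by the scanner, had a difference of -0.34 ± 0.49, and Fzd6 one of -0.02 ± 0.15.

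The co-receptors of the beta-catenin branch did not pass. Lrp5 had -0.39 to -0.23 in ALK/MYCN, against -0.34 to -0.12 in MYCN, with a difference of -0.05 ± 0.06 (adjusted p = 0.612). Lrp6 had -0.29 to 0.27 in ALK/MYCN, against -0.35 to 0.39 in MYCN, with a difference of -0.05 ± 0.14 (adjusted p = 0.813). The sign of both turns with the scaling: with median centring the differences were 0.09 for Lrp5 and 0.07 for Lrp6.

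Fzd10, a Frizzled receptor with restricted expression in adult tissue, was above background in no ALK/MYCN tumour and in 4 of 5 MYCN tumours. Its log2 ratio was 0.25, 0.33, 0.21, 0.05 and 0.20 in ALK/MYCN tumours 1 to 5, against 1.89, 1.39, 0.59, 0.18 and 0.81 in MYCN tumours 1 to 5. MYCN 1 and 2 were highest and MYCN 4 lay among the ALK/MYCN tumours. The tumour signal was at least 1.76-fold lower in ALK/MYCN, a bound set by the lowest signal counted as above background on each array, from arrays without a dye swap. Fzd10 missed the detection rule by 1 array, and in the fit without that rule it had a difference of -0.76 ± 0.27 (adjusted p = 0.0895). Fzd8 was above background in 2 tumours of each group, with ratios of -1.07 to -0.41 in ALK/MYCN, against -0.99 to -0.44 in MYCN.

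**Figure D4:**
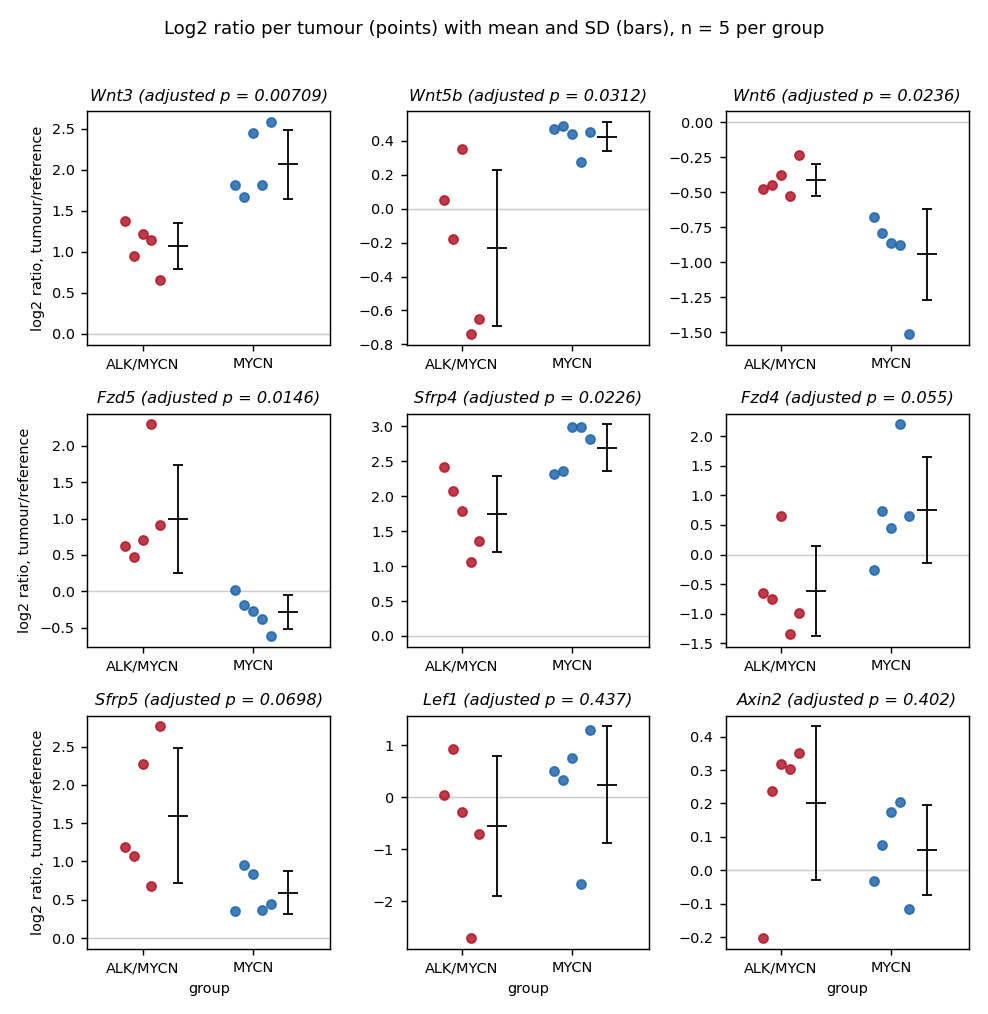
Log2 ratio of tumour over reference in each tumour (points, ALK/MYCN left of MYCN) with the mean and SD beside them (bars, n = 5 each) for 9 members, each on its own vertical axis. Wnt3, Wnt6 and Fzd5 have groups that do not overlap, while ALK/MYCN 4 stands far above in Fzd5 and ALK/MYCN 4 and MYCN 4 far below in Lef1.

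Among the secreted antagonists, Sfrp4 was lower in ALK/MYCN tumours. Sfrp4 is a soluble Frizzled-related protein that binds Wnt ligands and is made by connective tissue and bone. The log2 ratio of this gene was 2.41, 2.08, 1.79, 1.05 and 1.36 in ALK/MYCN tumours 1 to 5, against 2.32, 2.35, 2.99, 2.99 and 2.82 in MYCN tumours 1 to 5. ALK/MYCN 1 lay above MYCN 1 and 2, and the other 4 ALK/MYCN tumours lay below all MYCN tumours. The difference was -0.95 ± 0.26 (adjusted p = 0.0226). Within slides 1, 2 and 3 it was -0.24, -1.24 and -1.36, and a fit with slides as blocks gave -1.03 (adjusted p = 0.0539).

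Fibroblast markers are given beside Sfrp4 because connective tissue is a known source of it. Of 10 fibroblast markers 1 passed lower in ALK/MYCN tumours (Pdgfrb, the PDGF receptor of mural cells, by -1.13) and none higher, with a median difference of -1.22. Of all genes 12.2% were called lower and 14.2% higher. Their summed signal was 38.7 to 95.1 times the array's 75th percentile in ALK/MYCN tumours, against 31.98 to 484.6 in MYCN tumours. The sums were 38.7, 66.8, 82.7, 74.1 and 95.1 in ALK/MYCN tumours 1 to 5. In MYCN tumours 1 to 5 they were 31.98, 279.6, 219.1, 484.6 and 68.35. MYCN 1 had the lowest sum of all 10 tumours and the lowest Sfrp4 ratio of the MYCN tumours (2.32, above 4 of the 5 ALK/MYCN tumours). MYCN 4 had the highest sum and, with MYCN 3, the highest Sfrp4 ratio (2.99). Other tumours did not follow that order: MYCN 2 had the next highest sum and a ratio of 2.35. Within ALK/MYCN, tumour 1 had the lowest sum and the highest ratio (2.41), and tumour 5 the highest sum and a ratio of 1.36. The part of fibroblasts in the Sfrp4 value was not tested.

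Sfrp5, a related antagonist known from gut endoderm and fat, was highest in ALK/MYCN 3 and 5 and did not pass. In log2 ratio it measured 1.19, 1.06, 2.27, 0.68 and 2.77 in ALK/MYCN tumours 1 to 5, against 0.35, 0.95, 0.83, 0.37 and 0.44 in MYCN tumours 1 to 5. The groups overlapped through ALK/MYCN 4, and the difference was 1.01 ± 0.37 (adjusted p = 0.0698). Without ALK/MYCN 4 it was 1.23 (adjusted p = 0.0348), without ALK/MYCN 3 it was 0.84 (adjusted p = 0.134) and without ALK/MYCN 5 it was 0.71 (adjusted p = 0.123). A fit with slides as blocks gave 1.32 (adjusted p = 0.0387). Sfrp4 and Sfrp5 thus had differences of opposite sign.

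Sfrp2, also made by connective tissue, had 1.88, 2.47, 1.59, -0.52 and 1.36 in ALK/MYCN tumours 1 to 5, against 1.67, 1.62, 2.53, 1.33 and 2.24 in MYCN tumours 1 to 5. ALK/MYCN 4 was far below the others, and the difference was -0.52 ± 0.49 (adjusted p = 0.466). It was -0.05 without ALK/MYCN 4 (adjusted p = 0.916). The differences were 0.17 ± 0.25 for Sfrp1, -0.31 ± 0.18 for Dkk2 and -0.22 ± 0.37 for Dkk3, a divergent member of the Dkk family, and none of these passed. Dkk1 and Wif1 were above background in ALK/MYCN 5 alone. There Dkk1, the best known blocker of Lrp5 and Lrp6 and itself a beta-catenin target, had a ratio of 0.79, against 0.00 to 0.22 in the other ALK/MYCN tumours and -0.16 to 0.09 in MYCN tumours.

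The 2 transcripts that read out the pathway did not pass. Axin2, a scaffold of the complex that destroys beta-catenin and a direct target of the pathway, had -0.20, 0.24, 0.32, 0.30 and 0.35 in ALK/MYCN tumours 1 to 5, against -0.03, 0.08, 0.17, 0.20 and -0.12 in MYCN tumours 1 to 5. ALK/MYCN 1 was the lowest of all 10 tumours, and the other 4 ALK/MYCN tumours lay above all MYCN tumours. The difference was 0.14 ± 0.12 (adjusted p = 0.402). Without ALK/MYCN 1 it was 0.24 (adjusted p = 0.0627), and with spike-in centring it was 0.39 and passed (adjusted p = 0.00984). A second Axin2 probe was above background in 2 ALK/MYCN and 0 MYCN tumours and was not tested. Its mean ratio was 0.04 in ALK/MYCN and 0.09 in MYCN tumours. Lef1, the nuclear factor that pairs with beta-catenin, had 0.04, 0.93, -0.29, -2.70 and -0.71 in ALK/MYCN tumours 1 to 5, against 0.50, 0.33, 0.75, -1.66 and 1.29 in MYCN tumours 1 to 5. One tumour of each group, ALK/MYCN 4 and MYCN 4, was far below the rest, and the difference was -0.79 ± 0.70 (adjusted p = 0.437). Leaving out ALK/MYCN 4 gave -0.25 (adjusted p = 0.788), while leaving out MYCN 4 gave -1.27 (adjusted p = 0.172). A second Lef1 probe had the same 2 low tumours, at -2.82 in ALK/MYCN 4 and -2.22 in MYCN 4, and a difference of -0.86 ± 0.62 (adjusted p = 0.345 over all probes kept).

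Other genes of the pathway were described through 4 lists. Their counts are read beside the shares of all genes tested, of which 14.2% were called higher and 12.2% lower. Of 24 genes that export Wnt proteins or act at the cell surface, 18 were tested, with a median difference of -0.19. In ALK/MYCN tumours 4 passed higher and 3 lower. The 4 include Ndp and Rspo2, which entered the test only through the group where they are high, and otherwise Porcn and Sostdc1. Ndp, the Norrin ligand that acts through Fzd4, had 2.34, 1.43, 2.00, 3.65 and 2.21 in ALK/MYCN tumours 1 to 5, against 0.05, 0.24, 0.24, 0.11 and 0.05 in MYCN tumours 1 to 5. It was above background in all 5 ALK/MYCN tumours and in no MYCN tumour, and its ALK/MYCN signal was higher by at least 4.64-fold. ALK/MYCN 4 was highest for Ndp and lowest for Fzd4.

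Rspo2, an R-spondin that raises the level of Frizzled receptors at the surface, had 0.28, -0.13, -0.02, 0.75 and 0.35 in ALK/MYCN tumours 1 to 5, against -1.14, -1.16, -1.06, -1.09 and -1.36 in MYCN tumours 1 to 5. No MYCN tumour was above background for it, all 5 ALK/MYCN tumours were, and ALK/MYCN signal was higher by at least 2.55-fold. Ndp and Rspo2 met the detection rule through the ALK/MYCN tumours alone, so that their calls are no support for a difference and the bounds are given in their place. Lgr5, a receptor of R-spondins, was lower, at 4.06 ± 0.19 in ALK/MYCN, against 4.86 ± 0.39 in MYCN (SD, n = 5 each, difference -0.80 ± 0.18, adjusted p = 0.0101). Porcn, the enzyme that attaches the lipid to Wnt proteins, was higher by 0.60 ± 0.10, at -0.13 to 0.18 in ALK/MYCN, against -0.72 to -0.34 in MYCN (adjusted p = 0.00242). Gpc3, a glypican that binds Wnt ligands at the surface, was lower with a difference of -2.31 ± 0.34, at 0.28 to 1.91 in ALK/MYCN, against 2.84 to 4.11 in MYCN (adjusted p = 0.00144). Gpc3 was above background in 3 of 5 ALK/MYCN and all 5 MYCN tumours and on 0 of 10 reference arrays, and on the tumour signal alone its difference was -4.08 (adjusted p = 0.0144), so its size depends on the processing. With slides as blocks Lgr5, Porcn and Gpc3 passed (adjusted p = 0.0269, 0.00452 and 0.00484).

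**Figure D5:**
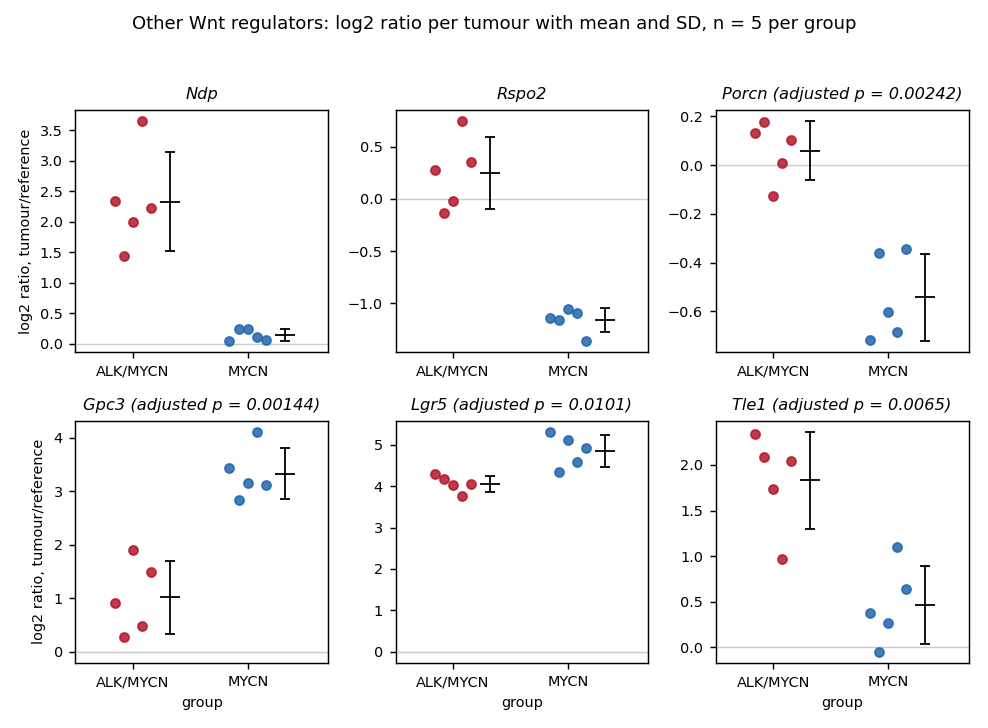
Log2 ratio of tumour over reference in each tumour (points, ALK/MYCN left of MYCN) with the mean and SD (bars, n = 5 each) for 6 other Wnt regulators. Ndp, Rspo2, Porcn and Gpc3 have wide gaps between the groups, with Gpc3 and Lgr5 lower in ALK/MYCN tumours, while Tle1 overlaps in ALK/MYCN 4. No p is given for Ndp and Rspo2, which were above background in no MYCN tumour.

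Of 28 genes of the destruction complex and nuclear machinery on the array, all were tested, and 6 passed higher and 4 lower. Of all genes 14.2% were called higher and 12.2% lower. The median difference of the list was -0.13. Tle1, a co-repressor that binds TCF/LEF factors, was higher by 1.36 ± 0.27 (1.83 ± 0.53 in ALK/MYCN, against 0.47 ± 0.43 in MYCN, SD, adjusted p = 0.00650). Gsk3b, the kinase that marks beta-catenin for destruction, was higher by 0.39 ± 0.09 (adjusted p = 0.0109), Csnk1d by 0.43 ± 0.08 (adjusted p = 0.00523) and Tnks, which destabilises Axin proteins, by 0.37 ± 0.08 (adjusted p = 0.0106). Dvl2, which relays the signal from Frizzled receptors, was lower with a difference of -0.43 ± 0.07 (adjusted p = 0.00279). With slides as blocks these 5 genes passed (adjusted p from 0.0104 to 0.0326). The split moves with scaling: 8 were higher and 0 lower after median centring, against 10 and 0 after centring on the spike-in controls.

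Of 16 genes of the branches without beta-catenin, 14 were tested, and 1 passed higher and 2 lower (14.2% and 12.2% of all genes). The median difference of the list was -0.02. Daam1, an actin regulator, was higher by 0.45 ± 0.13 (adjusted p = 0.0334). Ror2, a receptor for Wnt5a, was lower with a difference of -0.67 ± 0.22 (adjusted p = 0.0445), and the polarity gene Scrib with a difference of -0.21 ± 0.06 (adjusted p = 0.0368). With slides as blocks Scrib passed (adjusted p = 0.0425), and Daam1 (adjusted p = 0.0764) and Ror2 (adjusted p = 0.0986) did not. Of 25 alternatives, 12 ended the call of Daam1 and 15 that of Ror2. After median centring 1 gene was higher and 0 were lower, and centring on the spike-in controls put Scrib at 0.04.

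Of 20 genes known to respond to beta-catenin, 13 were tested, and 2 passed higher and 1 lower (14.2% and 12.2% of all genes). The median difference of the list was -0.21. Those that passed were Mycn, Nkd2 and Lgr5. The mouse Mycn probe was higher by 2.85 ± 0.35 (3.65 ± 0.77 in ALK/MYCN, against 0.80 ± 0.43 in MYCN, SD, adjusted p = 7.62e-04), and whether it also reads the transgene was not tested. Nkd2, an inhibitor induced by the pathway, was higher by 0.27 ± 0.07 (adjusted p = 0.0243), which did not pass with slides as blocks (adjusted p = 0.0646) or on the tumour signal alone (adjusted p = 0.0543).

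Facts of the arrays as a whole bear on these values. In the tumour channel 52.8% to 57.9% of the probes were well above background, and the number of arrays limits the precision. Summed signal of 12 sympathetic neuroblast markers was 706.6 to 963.5 times the array's 75th percentile in ALK/MYCN, against 371.4 to 594.1 in MYCN, and all 12 were above background in every tumour. Of 9 Schwann cell markers 4 passed higher, with sums of 12.2 to 22.8 in ALK/MYCN, against 8.27 to 12.8 in MYCN. Of 10 macrophage markers 6 passed lower and 1 higher, with sums of 62.4 to 74.7 in ALK/MYCN, against 72.0 to 106.0 in MYCN. Of all genes 14.2% were called higher and 12.2% lower. Sums of 8 adipocyte markers were 0.35 to 141.7 in ALK/MYCN, highest in ALK/MYCN 3, against 13.5 to 1282 in MYCN, highest in MYCN 4. MYCN 5 had the highest sum of 8 kidney epithelium markers (115.8). The part of these cell types in the members' values was not tested. Without ALK/MYCN 3, MYCN 2 and MYCN 5, which carried adrenal, muscle or kidney markers, 3 of the 5 members passed (Wnt6 higher, Wnt3 and Wnt5b lower). Without MYCN 4 each of the 5 passed (adjusted p from 0.0110 to 0.0498).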

How the data were processed

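The members, gene lists, tests and alternatives were chosen with earlier results of these data known. Spot intensity values of both dyes were deposited by the authors as scanner output. Per the file headers, Feature Extraction 10.7.3.1 made it and probes are placed on mm9. The deposited value table holds log2 ratios, which equal the log2 ratio of Cy3 to Cy5 processed signal to within 5.01e-04 on all arrays, with medians of -0.185 to -0.034. Per the labels, the tumour carried Cy3 and the reference Cy5 on every array, with no dye swap.

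From the deposited intensities, mean signals were corrected with normexp (offset 50), which compresses differences of dim probes. Ratios were normalised within arrays by loess with control spots at weight 0 and turned to tumour over reference. Spots marked as outliers (177 to 345 per array) were set to missing, no spot was saturated, and repeated spots were averaged per probe. Probes were kept if 5 or more of the 10 arrays had them well above background in the tumour dye (30857 of 55681), and the probe of highest mean intensity stood for a gene, which gave 22263 genes. Gene names are those of the array files. Groups were compared with limma 3.58.1 in R 4.3.3 (lmFit, eBayes, two-sided) with Benjamini-Hochberg adjustment at 0.05 over all genes. P-values measure the spread between tumours of different mice. In simulated data of 22181 genes with 200 changed, the fit recovered 38.8% of those changed by 0.5, 82.1% by 1 and 97.0% by 2 on the log2 scale, with 6 false of 151 calls. The noise was independent between genes, without slide, mouse background or tissue effects. Far fewer genes were changed than the 26.5% called in the data, so these rates are not those of this comparison.

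The text gives every called member by tumour, the 6 uncalled members of largest difference (Fzd4, Sfrp5, Fzd2, Lef1, Fzd9 and Sfrp2), Axin2, Lrp5 and Lrp6, and the others by range or count. Fzd10, Wnt4, Wnt11, Wnt9a and Dkk1 are given in more detail, a choice made after their values were seen. Of each pathway list up to 5 called genes with the smallest p are named. Marker lists are given as summed Cy3 processed signal over each array's 75th percentile. The tumours ALK/MYCN 2 and MYCN 1 shared slide 1. On slide 2 were ALK/MYCN 1, 3 and 4 with MYCN 4, and on slide 3 ALK/MYCN 5 with MYCN 2, 3 and 5. Alternatives covered other signals, centring, filters, probe summaries, variance models, blocks and tumours left out. Scaling of ratios between arrays was added after seeing the data, because Aquantile leaves ratios as they are.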

Additional observations from a re-analysis of the deposited data

Results flagged for a closer look

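In 10 of 68 groups of up to 5 tumours examined (34 members, both groups each), 1 tumour stood apart. It lay farther from the other 4 than Dixon's test for 5 values allows at its 95% critical value. Chance gives this in about 1 of 20 groups. Values are log2 ratios of tumour over reference, and no cause was tested. Fzd5 was 2.30 in ALK/MYCN 4, against 0.47 to 0.91 in the other ALK/MYCN tumours, and the same tumour was highest on the second Fzd5 probe. Axin2 was -0.20 in ALK/MYCN 1, against 0.24 to 0.35 in the other 4. Dkk1 was 0.79 in ALK/MYCN 5, the single tumour in which its probe was above background, against 0.00 to 0.22. Wnt4 was -0.82 in ALK/MYCN 3, against -2.40 to -2.02 in the other ALK/MYCN tumours, and -1.44 in MYCN 2, against -2.32 to -2.07 in the other MYCN tumours. Wnt11 was 0.56 in MYCN 2, against -0.60 to -0.32. Lrp5 was -0.12 in MYCN 2, against -0.34 to -0.28. Wnt5b was 0.27 in MYCN 4, against 0.44 to 0.49, and Wnt16 was -0.12 in MYCN 4, against 0.19 to 0.27. Wnt6 was -1.51 in MYCN 5, against -0.88 to -0.68 in the other MYCN tumours.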

How the results depend on the processing

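Over 25 alternatives, 2 to 6 members passed in place of 5, and Fzd5, Wnt3, Sfrp4, Wnt5b and Wnt6 kept their sign in each. Aquantile, 1 of the 25, leaves ratios as they are and repeats the main fit. The filters and variance models left the differences of these 5 unchanged wherever they were tested, so no sign could turn there. Wnt3 passed in all 24 alternatives that could test it, Fzd5 in 23 of 25, Wnt6 in 21, Sfrp4 in 19 and Wnt5b in 13. No alternative used the second Fzd5 probe alone, on which the difference did not pass. On the tumour signal alone 3 members passed (1 higher, 2 lower), and 3 (1 higher, 2 lower) when ALK/MYCN 3, MYCN 2 and MYCN 5 were left out. In the fit with slides as blocks 3 passed, but of the 5 called members only Wnt3 was among them. Fzd5, Wnt6, Sfrp4 and Wnt5b did not pass in that fit, while Fzd4 and Sfrp5, not called in the main fit, did. The replicate numbers do not pair the tumours (correlations of same-numbered deviations 0.339, -0.020, -0.081, -0.091 and -0.061), and with the replicate block 3 members and 4616 genes passed, Sfrp4 and Wnt6 no longer among them. Leaving out 1 tumour gave 2 to 6 members and 4129 to 5431 genes, with 2 members without ALK/MYCN 5 and 3 without MYCN 3. Of all genes, 5892 passed, against 9458 with spike-in centring (8620 higher, 838 lower) and 3685 without those 3 tumours. The share of called genes that were higher was 53.8%, against 76.8% (median centring) and 91.1% (spike-in centring, where 5 members were higher and 1 lower). Signs turned for Lrp5 (0.0881 with median centring, 0.202 with spike-in centring and 0.245 on the tumour signal alone), for Lrp6 (0.0722 and 0.197 with the same centrings, and -0.140 to 0.0443 leaving out 1 tumour, above 0 without ALK/MYCN 2 or MYCN 4) and for Scrib (0.0412 with spike-in centring). The cause was not tested. Fzd4 passed in 3 alternatives, Sfrp5 in 3 and Axin2 in 1. Genes near background have compressed ratios, and 15 members lay under the detection rule.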

Other observations

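Further regulators of the pathway passed the test. Kremen1, a receptor that removes Lrp6 from the surface together with Dkk proteins, was at -1.83 ± 0.19 in ALK/MYCN and -0.93 ± 0.47 in MYCN tumours (log2 ratio, SD, n = 5 each, limma adjusted p = 0.0113). Sostdc1, a secreted antagonist that binds Lrp6, was at 2.56 ± 0.97 in ALK/MYCN and 0.78 ± 0.85 in MYCN tumours (adjusted p = 0.0300), and was above background in 5 ALK/MYCN and 3 MYCN tumours. Of the destruction complex list, Frat2, which binds the GSK3 kinases, was at 0.94 ± 0.08 in ALK/MYCN and 0.46 ± 0.26 in MYCN tumours (adjusted p = 0.0150), and Axin1, the main scaffold of the complex, at -0.21 ± 0.07 in ALK/MYCN and 0.03 ± 0.12 in MYCN tumours (adjusted p = 0.0334). These 4 genes lie outside the naming rule and were chosen after their values were seen.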
